A study of Homo sapiens with 73 samples.

Results

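Expression after etoposide and cyclophosphamide (EC) was compared with expression after the preceding exposure to vincristine, doxorubicin and cyclophosphamide (VDC) in the fourth treatment cycle of cultured Ewing sarcoma cells. The comparison takes the treated lineages sequenced at both time point 7 (after VDC) and time point 8 (after EC), which are lineages 2, 5, 6 and 7, and pairs the libraries by lineage. It uses 8 of the 73 samples of the series. The cells are CHLA-9, an established Ewing sarcoma line with the EWSR1-FLI1 fusion, and every group carries that fusion. From 1 untreated culture, 7 lineages received VDC and EC in turn over 10 time points and 3 lineages received DMSO, the drugs' solvent, at the same time points. Each exposure lasted 5 days at the concentration with a 70% effect (EC70, a dose term unrelated to the drug pair). The drug was then washed off, and RNA was taken once the culture had regrown in drug-free medium to near confluency. Every library therefore reports survivors and their descendants after recovery, and not cells under drug. At time point 7 the 4 lineages had behind them 4 exposures to VDC and 3 to EC, and at time point 8 they had 1 more exposure to EC. The DMSO group had 1 pair at these time points, lineage 8. Treated lineage 1 had a library only at time point 7, and lineages 3 and 4 only at time point 8, so they entered no pair.

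Vincristine binds tubulin and blocks the mitotic spindle. Doxorubicin and etoposide both trap topoisomerase II on cut DNA, and cyclophosphamide gives rise to alkylating products once it is metabolised. EWSR1-FLI1 is an ETS fusion transcription factor that activates one set of genes in Ewing cells and represses another that includes matrix, adhesion and cytoskeletal genes. Ewing cells with low fusion activity are known to carry more of the repressed, mesenchymal programme.

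The values are quantile-normalized counts per gene, as the authors deposited them, so every treated library has the same total (13583520) and its depth is unknown. Differences are means of the 4 within-lineage differences of log2(value + 1), with the standard error (SE) from limma. This scale understates the change of low genes. Tests ran over the 14565 genes whose mean over all 73 samples reached 10, and a gene was called when its Benjamini-Hochberg adjusted p was below 0.05. Among the 8 Ewing sarcoma markers, NR0B1, STEAP1, LIPI, PAPPA, CCND1, BCL11B and NKX2-2 were above the minimum mean. CD99, a defining surface marker of the disease, was listed at 0.00104 to 1.25 in the 8 libraries. All 18 coding genes annotated on both the X and the Y chromosome, CD99 among them, were under 10 in all 8 libraries, so this value does not show whether CD99 was expressed. The 8 libraries correlated with each other at 0.957 to 0.991 over the tested genes. On the second principal component (21.5% of the variance) the library of lineage 6 after EC stood apart at -47.6, against -20.8 to 15.6 for the other libraries. The library of lineage 6 after VDC was nearer to lineage 7 after EC (r = 0.99) than to lineage 6 after EC (r = 0.974). The library of lineage 2 after EC was nearer to lineages 6 and 7 after VDC (r = 0.985 and 0.986) than to lineage 2 after VDC (r = 0.981). Whether libraries were exchanged between lineages was not tested, and the paired differences take the labelled lineages as given. Counts of calls are therefore also given without each lineage in turn, and list results without lineage 6 only. Without lineage 2, to which the same doubt applies, no gene passed. No label gives a batch, so the drug pair, the time point and any difference in handling between time points cannot be told apart.

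After EC, 42 genes were higher and 7 lower than after the preceding VDC (adjusted p under 0.05, limma). These 49 genes are 0.336% of the genes tested, 0.288% higher and 0.0481% lower. The higher genes include several that encode extracellular matrix and its modifying enzymes (FBN1, MGP, HTRA1, LOX, LOXL2, TNC, COL6A2 and COL5A3), cell surface proteins of mesenchymal cells (NT5E, MME, CD109) and cytoskeletal proteins (VIM, MAP1B, LIMA1, TMSB4X). The lower genes include CCND2, which encodes a D-type cyclin, and PAX7, a transcription factor that marks Ewing cells and is activated by the fusion. The differences ran from 0.44 to 1.97 (log2) among the higher genes and from -0.95 to -0.52 among the lower ones. All 49 moved the same way in 4 of 4 lineages, which the test favours, and 8.59% of all genes tested were higher in all 4 lineages and 9.17% lower. The median difference over all tested genes was -0.01.

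The calls rested on the pairing and on single lineages. Without the lineage block no gene passed (796 at an unadjusted p under 0.05, smallest adjusted p = 0.167), against 1520 at an unadjusted p under 0.05 with it. Without lineage 2 no gene passed (1135 unadjusted), without lineage 5 there were 7, without lineage 7 there were 12, and without lineage 6 there were 86 (73 higher and 13 lower, 0.59% of the genes tested), of which 37 were among the 49.

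**Figure D1:**
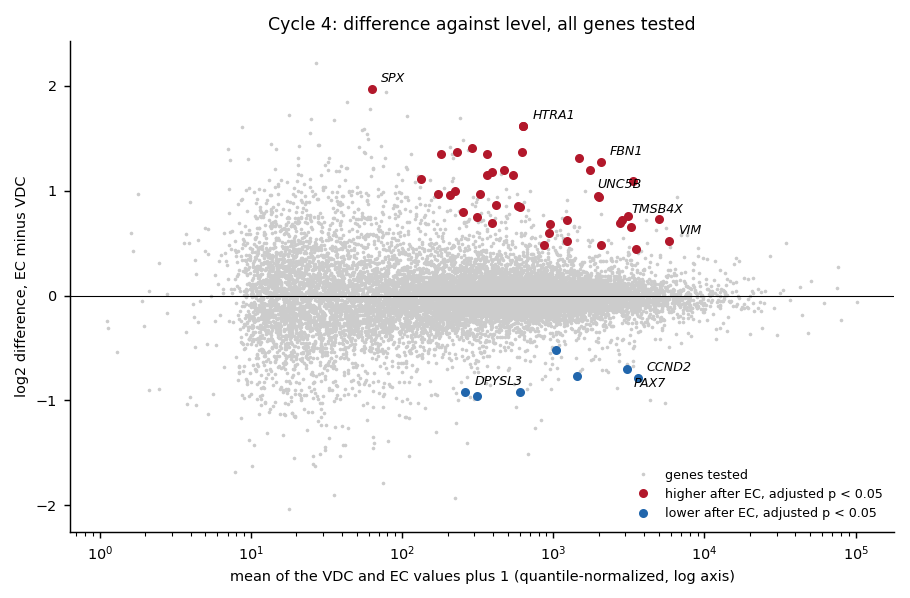
Each grey point is 1 of the 14565 genes tested, placed by the mean of its VDC and EC values plus 1 (quantile-normalized, log axis) and by its cycle 4 log2 difference, EC minus VDC. Red points are the 42 genes called higher after EC and blue points the 7 called lower, and the called genes lie mostly at mid to high levels, while larger differences at low levels did not pass.

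Among matrix genes, FBN1 encodes fibrillin-1, the main component of microfibrils (GRCh38 chr15:48408306-48645849, minus strand). Its value was 911 after VDC and 2211 after EC in lineage 2, 487 and 1557 in lineage 5, 1973 and 4388 in lineage 6, and 1693 and 3338 in lineage 7. All 4 lineages were higher after EC, yet the groups overlap because lineages 6 and 7 after VDC lay above lineage 5 after EC. The mean difference was 1.27 ± 0.109 (SE, 4 pairs), or 2.41-fold, at adjusted p = 0.00697. In DMSO lineage 8 FBN1 was 1466 at time point 7 and 1362 at time point 8.

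MGP encodes matrix Gla protein, an inhibitor of calcification. It went from 175 to 550 in lineage 2, from 115 to 341 in lineage 5, from 626 to 1296 in lineage 6 and from 571 to 1311 in lineage 7. The difference was 1.36 ± 0.122 (adjusted p = 0.00697), while DMSO lineage 8 had 288 and then 357. HTRA1 encodes a secreted serine protease that cleaves matrix proteins. It went from 125 to 486 in lineage 2, from 91.6 to 294 in lineage 5, from 601 to 1168 in lineage 6 and from 490 to 1790 in lineage 7, a difference of 1.61 ± 0.161 (adjusted p = 0.0122). For both genes lineages 6 and 7 were above lineages 2 and 5 at each of the 2 time points.

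LOXL2 and LOX encode lysyl oxidases, which crosslink collagen and elastin. LOXL2 went from 910 to 1733 in lineage 2, from 668 to 1829 in lineage 5, from 1960 to 2842 in lineage 6 and from 2110 to 3850 in lineage 7, a difference of 0.95 ± 0.129 (adjusted p = 0.0433). LOX differed by 0.66 ± 0.0955 (adjusted p = 0.045), with 1621 to 3189 after VDC and 2997 to 5294 after EC. TNC, the matrix glycoprotein tenascin C, differed by 0.69 ± 0.1 (adjusted p = 0.0447), with 1296 to 2725 after VDC and 2594 to 3812 after EC. COL6A2, a chain of collagen VI, differed by 0.72 ± 0.113 (adjusted p = 0.0452). COL5A3, a chain of collagen V, differed by 0.97 ± 0.148 (adjusted p = 0.0452).

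The promoters of FBN1, TNC and GPNMB are shown because these called genes hold, respectively, 1 match to each motif searched, those of TEAD factors (the DNA-binding partners of YAP), of a tandem of the GGAA core that ETS factors bind, and of AP-1. The sequences are from RefSeq (GRCh38.p14), 250 bases before to 50 after a gene start, written 5′ to 3′ on the gene's strand, and the matches on either strand are in capitals.
FBN1, chr15:48644921-48645220, minus strand: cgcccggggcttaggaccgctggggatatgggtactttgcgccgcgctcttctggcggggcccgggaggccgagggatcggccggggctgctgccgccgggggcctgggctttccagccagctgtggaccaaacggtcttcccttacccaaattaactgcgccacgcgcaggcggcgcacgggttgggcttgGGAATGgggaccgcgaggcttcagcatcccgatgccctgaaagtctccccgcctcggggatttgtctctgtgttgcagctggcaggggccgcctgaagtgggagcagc
TNC, chr9:115118108-115118407, minus strand: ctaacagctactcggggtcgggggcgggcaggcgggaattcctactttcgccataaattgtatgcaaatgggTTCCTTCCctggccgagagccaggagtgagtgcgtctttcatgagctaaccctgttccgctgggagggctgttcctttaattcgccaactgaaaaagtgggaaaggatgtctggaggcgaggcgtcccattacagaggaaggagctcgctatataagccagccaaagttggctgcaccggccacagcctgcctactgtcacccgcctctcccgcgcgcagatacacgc
GPNMB, chr7:23246525-23246824, plus strand: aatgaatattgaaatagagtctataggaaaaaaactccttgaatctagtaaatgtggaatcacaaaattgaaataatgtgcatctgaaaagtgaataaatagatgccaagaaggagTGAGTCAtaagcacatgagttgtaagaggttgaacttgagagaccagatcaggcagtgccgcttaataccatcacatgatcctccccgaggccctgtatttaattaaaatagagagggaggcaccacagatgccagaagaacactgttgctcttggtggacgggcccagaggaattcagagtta

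The motifs were GGAATG for TEAD, GGAAGGAA for the tandem and TGANTCA for AP-1, searched on both strands. The FBN1 match is GGAATG, the TNC match is GGAAGGAA on the other strand, and the GPNMB match is TGANTCA. Windows were found for 36 of the 42 higher genes and 5 of the 7 lower ones, some genes having several. Each gene was counted when any of its windows held a match, so genes with more windows had more chances. Among the higher genes LDLRAD4 had 9 windows and KAZN and MME had 4 each, while all 27305 genes with a window had 35116 windows. The percentages below were not adjusted for this, so they do not show whether matches were more frequent per window. GGAATG was in a window of 9 of the 36 higher genes (25% against 16.7% of all 27305 genes with a window). GGAAGGAA was in 4 of the 36 (11.1% against 4.5%) and TGANTCA in 4 (11.1% against 9.37%). None of the 3 motifs was in a window of the 5 lower genes. GGAATG and GGAAGGAA can overlap, as they do in a window of ARHGEF28. A match describes letters in the window and not binding.

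As a list, 5 of the 36 tested collagen and matrix genes were called higher (FBN1, LOXL2, COL6A2, TNC and LOX) and none lower. Among all genes tested 0.288% were called higher. Positive differences were found for 34 of the 36, against 47% of all genes tested, and the list's median was 0.37. COL12A1 had the largest difference of the list at 1.32 and did not pass (adjusted p = 0.205). DCN at -0.58 and VCAN at -0.48, which encode proteoglycans, were the 2 members below 0. The median differed between lineages, with 0.51 in lineage 2, 0.62 in lineage 5, 0.07 in lineage 6 and 0.47 in lineage 7, and it was 0.03 in DMSO lineage 8. COL1A1, a chain of collagen I, shows the same contrast. Its difference was 1.13 to 1.24 in lineages 2, 5 and 7 and 0.18 in lineage 6, with adjusted p = 0.0651 over the 4. Without lineage 6, 8 of the 36 genes were called higher (COL1A1, COL3A1, COL6A2, COL18A1, FBN1, SPARC, TNC and LOXL2) and the median was 0.59. Without lineage 2 no gene of this or any other list was called.

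The summed level of the 15 muscle and fibroblast markers, which share COL1A1, COL3A1, DCN and LUM with the matrix list, ranged from 7086 to 18870 after VDC and from 11960 to 27990 after EC. COL1A1 (1410 to 7620 after VDC, 3090 to 12900 after EC) and COL3A1 (2860 to 6740, then 5470 to 9660) made up most of these sums. The fibroblast markers DCN (569 to 763, then 116 to 721) and PDGFRB (648 to 1670, then 706 to 1830) overlapped between the groups, and the list's median difference was 0.08. The muscle regulators MYOD1, MYOG and MYF5 were at 3.13 or below in every library, and 4 of the 15 had a mean under 1. None of the 9 tested members was called over the 4 lineages, and 2 (COL1A1 and COL3A1) were called higher without lineage 6. The part of any such cells in the matrix result was not tested.

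EWSR1-FLI1-repressed genes are those known to rise when the fusion is lost, and they share TNC, LOX and several collagens with the matrix list. Of 26 tested, 3 were called higher (TNC, LOX and VIM), against 0.288% of all genes tested, and none lower. All 26 had a positive difference, against 47% of all genes tested, with a median of 0.37. By lineage the median was 0.75 in lineage 2, 0.60 in lineage 5, -0.0029 in lineage 6 and 0.57 in lineage 7, so lineage 6 stood apart from the other lineages. DMSO lineage 8 stood at -0.03. Without lineage 6, 5 of the 26 were called higher (TNC, VIM, COL1A1, COL3A1 and SPARC), LOX did not pass, and the median was 0.61. Without lineage 2 none of the 26 was called.

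VIM encodes vimentin, the intermediate filament protein of mesenchymal cells. It was 4344 after VDC and 6465 after EC in lineage 2, 3391 and 5470 in lineage 5, 5955 and 7500 in lineage 6, and 5692 and 7881 in lineage 7. The difference was 0.52 ± 0.0802 (adjusted p = 0.0452), and DMSO lineage 8 was at 5178 and 5047.

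Of the 36 tested EWSR1-FLI1-activated genes, 1 was called lower (PAX7) and none higher. Among all genes tested 0.0481% were called lower. Their median was -0.12, and -0.03 in DMSO lineage 8. In all 4 treated lineages 12 members were lower and 2 higher, against 9.17% and 8.59% of all genes tested. PAX7 went from 3333 to 2355 in lineage 2, from 4344 to 2767 in lineage 5, from 3646 to 1695 in lineage 6 and from 3737 to 2586 in lineage 7. Every value after EC was below every value after VDC, and the difference was -0.70 ± 0.104 (adjusted p = 0.0452). DMSO lineage 8 had 3840 and then 2839, so it was lower at time point 8 as well. NR0B1, a nuclear receptor and direct target of the fusion, lay between 2686 and 3522 after VDC and between 1807 and 2626 after EC. Its groups did not overlap, as was so for 3.25% of all genes tested. The difference of NR0B1, -0.52 ± 0.103, did not pass (adjusted p = 0.0888). NKX2-2, another fusion target, was between 34.6 and 60.5 after VDC and between 4.88 and 30.5 after EC. Its difference of -1.25 ± 0.394 did not pass (adjusted p = 0.271).

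The reads assigned to EWSR1 and FLI1 cannot separate the fusion from the normal genes. EWSR1 differed by 0.01 ± 0.0826 (adjusted p = 0.98) and FLI1 by -0.10 ± 0.0767 (adjusted p = 0.733). ETS1, a related ETS factor, had 30.4 to 106 after VDC and 95.8 to 283 after EC, a difference of 1.35 ± 0.271 that did not pass (adjusted p = 0.093).

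**Figure D2:**
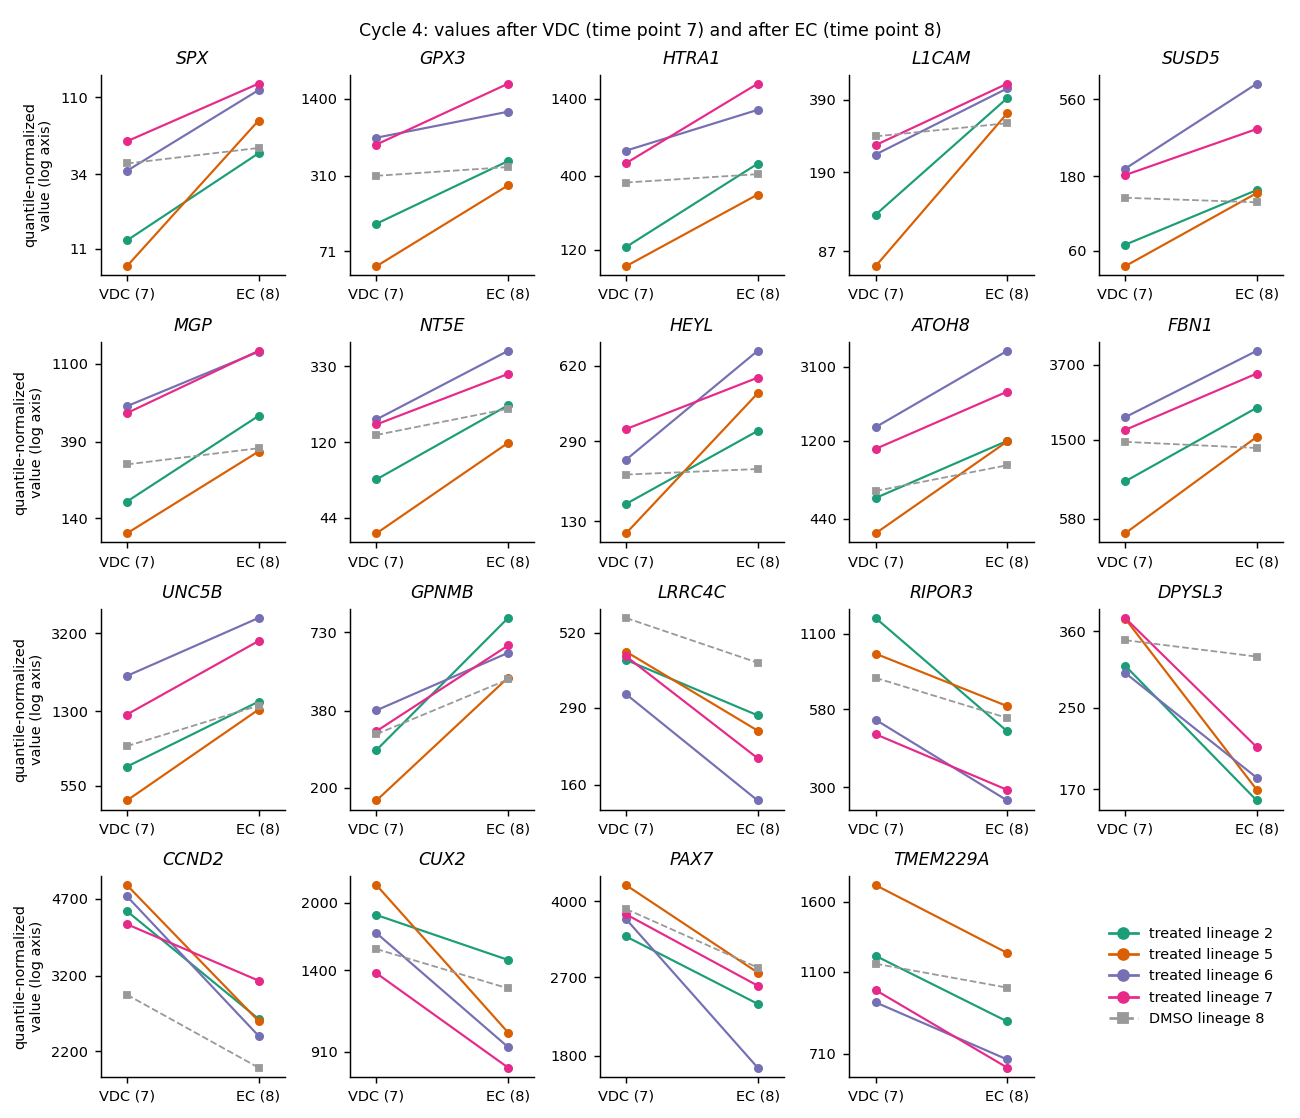
Quantile-normalized values (log axes, 1 scale per panel) after VDC (time point 7) and after EC (time point 8) for the 12 called genes with the largest increase and the 7 called lower. Coloured lines join the 2 libraries of a treated lineage and the grey dashed line joins those of DMSO lineage 8. All 4 coloured lines run the same way in each panel, and the DMSO line runs the same way as they do in all 7 panels of lower genes.

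Contractile and YAP target genes, which encode actin-binding and focal adhesion proteins, had no called member among 21 tested. All 21 had a positive difference, against 47% of all genes tested, with a median of 0.35. The medians were 0.26 to 0.51 in the 4 treated lineages, lineage 6 being the highest, and -0.11 in DMSO lineage 8. CALD1 (caldesmon) came nearest to the threshold, at 0.43 ± 0.0681 (adjusted p = 0.051), with 2452 to 4047 after VDC and 3179 to 5554 after EC. FLNC (filamin C) followed at 0.94 ± 0.178 (adjusted p = 0.0802). ACTG2, a smooth muscle actin outside the list, passed at 0.86 ± 0.136 (adjusted p = 0.0488). TMSB4X (thymosin beta 4, which binds actin monomers) and LIMA1 (an actin crosslinker) also passed, at 0.72 and 0.44. TMSB4X and ACTG2 have close relatives or processed copies in the genome, and reads shared with them could move their values.

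UNC5B, a netrin receptor (GRCh38 chr10:71212570-71302864, plus strand), had the smallest p of all genes. It went from 687 to 1455 in lineage 2, from 465 to 1327 in lineage 5, from 1958 to 3820 in lineage 6 and from 1254 to 2928 in lineage 7. The difference was 1.19 ± 0.0964 (adjusted p = 0.00697), and DMSO lineage 8 went from 871 to 1389, a difference of 0.67. SLIT3, a secreted guidance ligand, differed by 1.15 ± 0.159 (adjusted p = 0.0436). LRRC4C, a netrin-G ligand of synapses, was lower by 0.95 on the log2 scale, with 323 to 449 after VDC and 142 to 274 after EC and no overlap (adjusted p = 0.0433). DPYSL3, a protein of axon growth, had 295 to 383 after VDC and 161 to 208 after EC, a difference of -0.92 ± 0.125 (adjusted p = 0.0433).

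L1CAM, a neural adhesion molecule, was the 1 called member among 15 tested neural and neuroendocrine genes. It went from 125 to 396 in lineage 2, from 75.1 to 341 in lineage 5, from 227 to 436 in lineage 6 and from 249 to 457 in lineage 7. All values after EC were above all values after VDC, and the difference was 1.41 ± 0.213 (adjusted p = 0.0452). The list itself had a median of -0.26 with 3 positive members, against 47% of all genes tested, and lineage 6 stood lowest at -0.89.

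Transcription factors among the higher genes were ATOH8, MKX, HEYL, EPAS1 and JDP2. ATOH8, a basic helix-loop-helix factor, went from 574 to 1196 in lineage 2, from 364 to 1187 in lineage 5, from 1427 to 3810 in lineage 6 and from 1079 to 2254 in lineage 7, a difference of 1.31 ± 0.114 (adjusted p = 0.00697). MKX, the tendon factor Mohawk, had 176 to 296 after VDC and 397 to 538 after EC with no overlap (1.15 ± 0.125, adjusted p = 0.0196). HEYL, a Notch target, differed by 1.34 ± 0.195 (adjusted p = 0.0447). EPAS1, which encodes the hypoxia-inducible factor HIF-2 alpha, differed by 0.94 ± 0.117 (adjusted p = 0.0413), while the 27 tested hypoxia and glycolysis genes had no called member and a median of 0.10. JDP2, a dimerisation partner that represses AP-1, had 60.7 to 97.8 after VDC and 128 to 267 after EC with no overlap (1.11 ± 0.169, adjusted p = 0.0452).

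Of the surface proteins, NT5E (CD73, an ecto-nucleotidase) differed by 1.35 ± 0.165 (adjusted p = 0.0413). It went from 73.2 to 196 in lineage 2, from 35.7 to 119 in lineage 5, from 163 to 405 in lineage 6 and from 152 to 298 in lineage 7. MME (neprilysin, a cell-surface peptidase) differed by 1.17 ± 0.118 (adjusted p = 0.0122). CD109, which binds transforming growth factor beta, had 526 to 899 after VDC and 1011 to 1406 after EC, a difference of 0.68 ± 0.0953 (adjusted p = 0.0442). GPNMB, a transmembrane glycoprotein of lysosome-rich cells, had 180 to 381 after VDC and 500 to 823 after EC (1.19 ± 0.152, adjusted p = 0.0425). The groups of CD109 and GPNMB did not overlap.

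In all, the values after EC and after VDC did not overlap for 7 of the 42 higher genes (MKX, GPNMB, MAP1B, CD109, ARHGEF28, L1CAM and JDP2) and for 4 of the 7 lower genes (CCND2, DPYSL3, LRRC4C and PAX7). Among all genes tested, 3.25% had groups that did not overlap. The lineages differed from one another at both time points. Lineages 6 and 7 were both above lineages 2 and 5 after VDC for 38 of the 42 higher genes and after EC for 33, against 24.4% and 15.8% of all genes tested. Lineage 5 was the lowest of the 4 after VDC for 36 of the 42 (28.8% of all genes tested).

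Genes tied to the drugs' targets were mostly near 0. TOP2A, which encodes the topoisomerase II that etoposide and doxorubicin trap in dividing cells, differed by -0.02 ± 0.0737 (adjusted p = 0.944), with 6935 to 8266 after VDC and 6530 to 8585 after EC. TOP2B differed by -0.10 ± 0.0701 (adjusted p = 0.698). None of 11 topoisomerase and adduct repair genes, 37 homologous recombination and Fanconi genes or 34 other repair genes was called, with medians of -0.02, 0.03 and 0.01. BARD1, the partner of BRCA1 in repair by recombination, had the smallest p of its list (0.41 ± 0.111, adjusted p = 0.195).

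Of 23 tubulins and microtubule modifiers, the targets and partners of vincristine's target, 1 was called. MAP1B, which binds and stabilises microtubules, went from 2386 to 4696 in lineage 2, from 1675 to 5578 in lineage 5, from 2376 to 3750 in lineage 6 and from 2104 to 4229 in lineage 7. The groups did not overlap and the difference was 1.09 ± 0.149 (adjusted p = 0.0433). DMSO lineage 8 went from 2013 to 3609, a difference of 0.84. TUBB, the main beta-tubulin, differed by 0.02 ± 0.0966 (adjusted p = 0.959).

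No drug transporter passed among 15 tested, with a median of -0.09. ABCC1, an efflux pump for doxorubicin, etoposide and vincristine, differed by -0.06 ± 0.0723 (adjusted p = 0.83). ABCB1, the best known efflux pump for these drugs, fell short of the minimum mean and was listed at 0.0117 to 6.23 in the 8 libraries. SLFN11, which raises sensitivity to agents that damage replicating DNA, differed by -0.16 ± 0.0866 (adjusted p = 0.571). Among 24 aldehyde, carbonyl and glutathione enzymes none was called (median 0.01). ALDH1A1, which oxidises an active metabolite of cyclophosphamide, went from 97.4 to 293 in lineage 2, from 37.7 to 88.7 in lineage 5, from 458 to 196 in lineage 6 and from 282 to 654 in lineage 7. It was thus higher after EC in 3 lineages and lower in lineage 6, and its difference of 0.70 ± 0.4 did not pass (adjusted p = 0.6). Without lineage 6 ALDH1A1 was the 1 called gene of its list.

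GPX3, a secreted glutathione peroxidase outside the lists, went from 121 to 413 in lineage 2, from 52.9 to 257 in lineage 5, from 652 to 1084 in lineage 6 and from 571 to 1876 in lineage 7 (1.62 ± 0.21, adjusted p = 0.0433). SLC7A11, the cystine importer that feeds glutathione synthesis, went from 231 to 512 in lineage 2, from 709 to 1509 in lineage 5, from 336 to 441 in lineage 6 and from 345 to 598 in lineage 7 (0.85 ± 0.133, adjusted p = 0.0452). It was the 1 called gene among 13 NRF2 targets (median 0.10) and among 28 ATF4 and unfolded protein response genes (median 0.08). In DMSO lineage 8 SLC7A11 went from 399 to 750, a difference of 0.91 against the treated mean of 0.85. BOK, a pro-apoptotic BCL2 relative, was the 1 called gene among 19 BCL2 and IAP family genes, at 0.75 ± 0.116 (adjusted p = 0.0452), against a list median of -0.0046. Without lineage 6 BOK did not pass.

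The largest difference of any called gene was that of SPX, which encodes the peptide hormone spexin. It went from 12.5 to 46.9 in lineage 2, from 8.43 to 77.1 in lineage 5, from 35.9 to 122 in lineage 6 and from 56.2 to 135 in lineage 7, a difference of 1.97 ± 0.308 (adjusted p = 0.0461).

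In the cell cycle lists, CCND2 was the 1 call. It went from 4420 to 2583 in lineage 2, from 5031 to 2555 in lineage 5, from 4760 to 2374 in lineage 6 and from 4140 to 3125 in lineage 7. The groups did not overlap and the difference was -0.79 ± 0.104 (adjusted p = 0.0433). DMSO lineage 8 went from 2914 to 2026, a difference of -0.52. None of 35 G2/M genes (median 0.05), 37 DNA replication genes (median 0.03) or 39 replication-dependent histone genes (median 0.11) was called. Without lineage 6 the histone median was -0.03, with 15 positive members in place of 31, and 1 member, H1-3, was called lower. MKI67, the proliferation marker Ki-67, differed by 0.12 ± 0.104 (adjusted p = 0.75). CDKN1A, the cyclin-dependent kinase inhibitor p21, went from 427 to 498 in lineage 2, from 860 to 190 in lineage 5, from 1520 to 1295 in lineage 6 and from 1751 to 1320 in lineage 7. Its difference of -0.65 ± 0.319 did not pass (adjusted p = 0.529), and lineage 5 had the lowest value after EC. MDM2, a negative regulator of the same damage response, differed by -0.15 ± 0.085 (adjusted p = 0.595).

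In the lists that follow no member was called over the 4 lineages. Among all genes tested 47% had a positive difference. Of 29 immediate early genes, which respond within minutes to stimuli and handling, 4 had a positive difference and the median was -0.36. The median was -1.49 in lineage 5 and between -0.32 and 0.08 in the other lineages. All 13 mitochondrially encoded genes had a negative mean difference (median -0.36), with lineage 2 positive at 0.20 and lineage 7 lowest at -0.999. COX3, a subunit of cytochrome c oxidase, was the member with the smallest p (-0.36 ± 0.106, adjusted p = 0.236). Of 32 cholesterol and fatty acid synthesis genes 29 had a positive difference (median 0.15), with lineages 5 and 6 at 0.33 and 0.37 and lineages 2 and 7 at -0.02 and -0.09. Of 78 cytosolic ribosomal protein genes 20 had a positive difference (median -0.06).

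Interferon-stimulated genes (28 tested, median -0.01), antigen presentation genes (17, median 0.04), NF-kB and secreted inflammatory genes (13, median 0.08) and heat shock genes (13, median -0.10) held no call over the 4 lineages. Without lineage 6 the inflammatory list had a median of 0.41 and 1 call, IGFBP7, a secreted binding protein. The 28 receptor tyrosine kinase and IGF axis genes held no call either, with all 4 lineages (median 0.09) or without lineage 6 (median 0.18). EGFR, the epidermal growth factor receptor, had the largest difference that the naming rule took from that list, with 48.7 to 261 after VDC and 253 to 487 after EC (1.48 ± 0.339, adjusted p = 0.139). CRYAB, a small heat shock protein, had 10 to 234 after VDC and 46.6 to 489 after EC (1.69 ± 0.305, adjusted p = 0.0686), and it was called higher without lineage 6. Blood markers summed to 401.4 to 600.1 after VDC and 333.3 to 452.3 after EC, with CD3D, CD3E and MS4A1 near 0. Epithelial markers summed to 166.4 to 543.6 and 181.6 to 595.7.

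**Figure D3:**
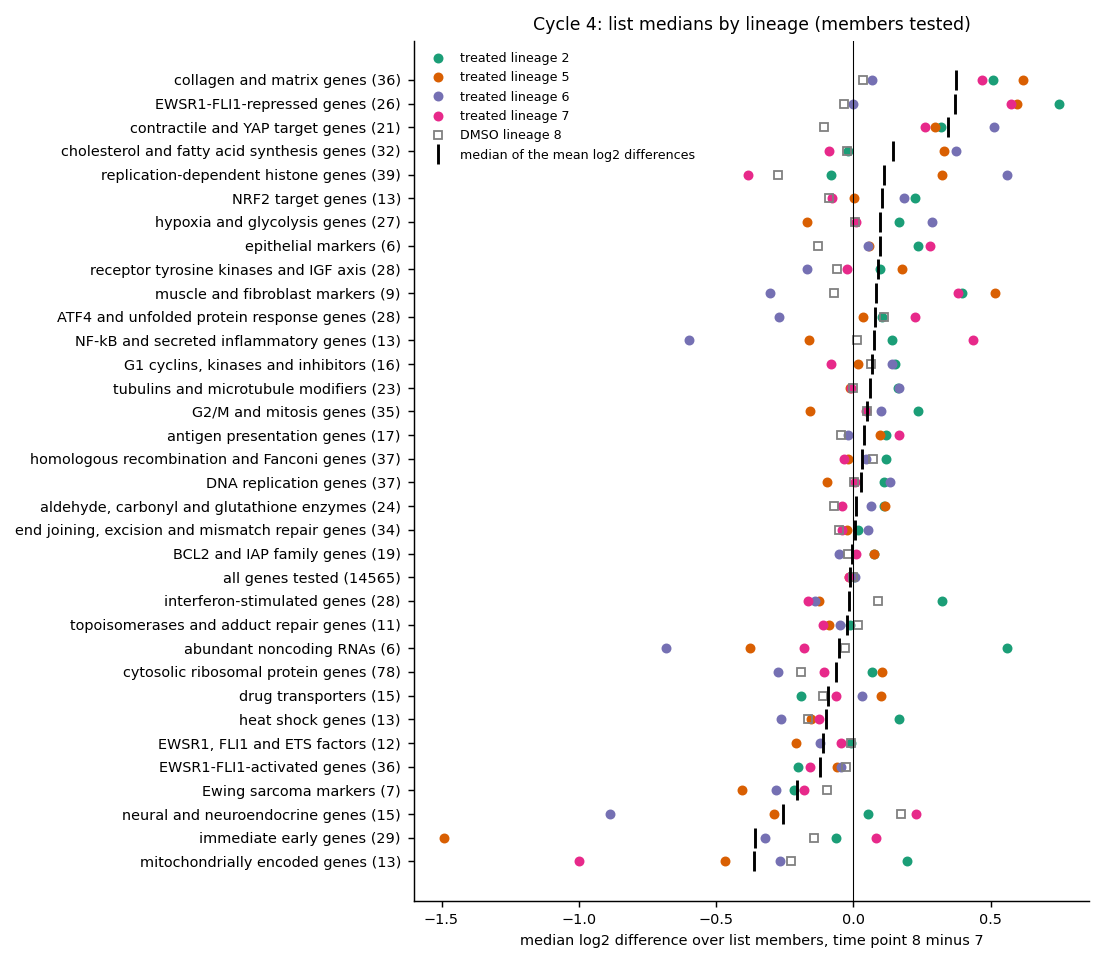
Each row is a gene list (number of members tested) and each coloured point is the median log2 difference of its members, time point 8 minus time point 7, in 1 treated lineage, with open squares for DMSO lineage 8 and black ticks for the median of the mean differences. The matrix and EWSR1-FLI1-repressed lists lie at the top with lineage 6 near 0, and the immediate early list shows lineage 5 far to the left at -1.49.

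The same step was measured in earlier cycles in other libraries. In cycle 2 (time point 4 against 3, 6 lineages, of which 5, 6 and 7 are shared) 1719 genes passed, 11.8% of those tested, with 926 higher (6.36%) and 793 lower (5.44%). The DMSO arm had no library at time point 3, so the cycle 2 step has no drug-free pair. Whether the cycle 2 differences came from the drugs was not tested. In cycle 3 (time point 6 against 5, the same 6 lineages) none passed (0%), with 521 at an unadjusted p under 0.05 and a smallest adjusted p of 0.999. Cycle 4, with 4 pairs, lay between them in its count of calls.

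All 42 genes higher in cycle 4 had a positive difference in cycle 2, where 28 of them were called higher, and the median there was 1.48 against 0.95 in cycle 4. In cycle 3, 37 of the 42 were positive and none was called, with a median of 0.27. Among all genes tested 46.6% were positive in cycle 2 and 50.6% in cycle 3. All 7 lower genes were negative in both cycles, and 4 of them were called lower in cycle 2. HTRA1 differed by 3.21 in cycle 2 (adjusted p = 0.00424), 0.38 in cycle 3 and 1.61 in cycle 4. TNC differed by 2.18 in cycle 2, 0.51 in cycle 3 and 0.69 in cycle 4. CCND2 differed by -0.60, -0.04 and -0.79, and did not pass in cycle 2 (adjusted p = 0.131). The matrix list's median was 0.60 in cycle 2 and 0.27 in cycle 3, and that of the EWSR1-FLI1-repressed list was 1.15 and 0.33.

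**Figure D4:**
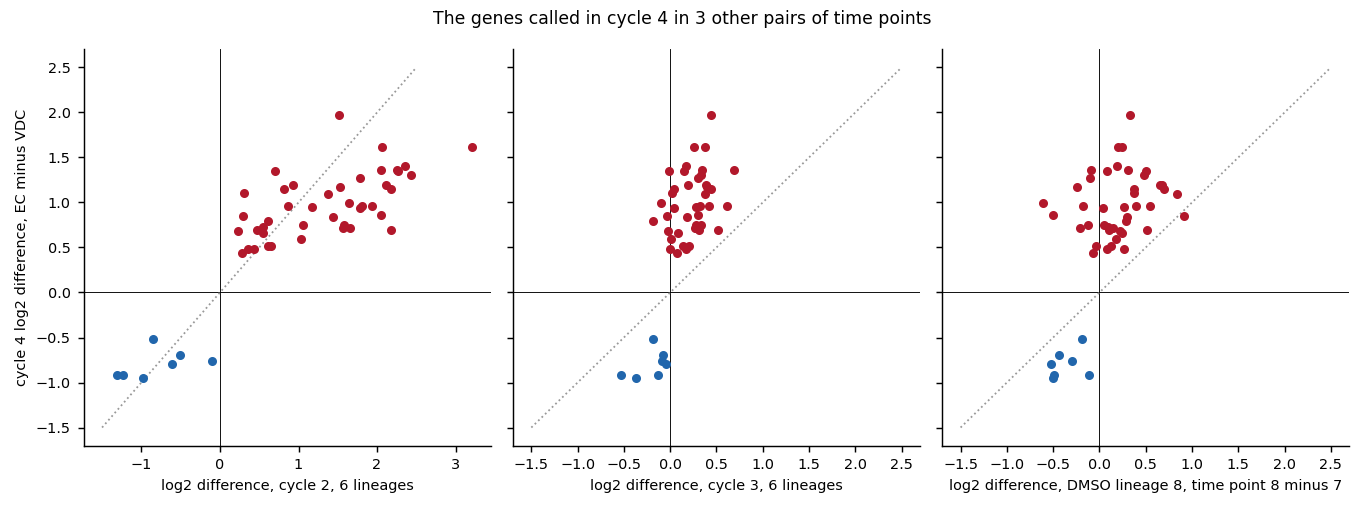
Each point is 1 of the 49 genes called in cycle 4 (red higher, blue lower), with its cycle 4 log2 difference on the vertical axis and its log2 difference in cycle 2, in cycle 3 or in DMSO lineage 8 (time point 8 minus 7) on the horizontal axis. Dotted lines mark equal differences. All points share the sign of cycle 4 in cycle 2, while in cycle 3 they span -0.54 to 0.69 and in the DMSO pair -0.61 to 0.91.

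A direct test of the difference between cycles, in the 32 libraries of the 3 cycles, called no gene for cycle 4 against cycle 3 (0%, 694 at an unadjusted p under 0.05, smallest adjusted p = 0.982). For cycle 4 against cycle 2 it also called none (0%, 1845 unadjusted, smallest adjusted p = 0.103). The smallest p-values of the second test belonged to TPM3, NOS1 and POSTN on the lower side. POSTN, the matrix protein periostin, differed by 4.13 in cycle 2 and 0.37 in cycle 4 (difference -3.77 ± 0.775, adjusted p = 0.204). NOS1, the neuronal nitric oxide synthase, went from a difference of 1.98 in cycle 2 to -1.93 in cycle 4 (-3.91 ± 0.659, adjusted p = 0.103). TPM3, a tropomyosin, differed by 0.52 in cycle 2 and -0.22 in cycle 4 (-0.74 ± 0.12, adjusted p = 0.103). On the higher side stood VPS35L, MMP14 and FAM234B, and MMP14, a membrane-bound matrix metalloprotease, differed by -0.61 in cycle 2 and 0.04 in cycle 4 (0.66 ± 0.125, adjusted p = 0.204).

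Against cycle 3, the smallest p-values included those of RPL11P3 and BARD1 on the higher side and of POMC, CACNA1I and CELF5 on the lower side. POMC, the precursor of several peptide hormones, had 18.7 to 31.8 after VDC and 1.55 to 13.1 after EC in cycle 4, without overlap, a difference of -2.04 ± 0.393 (adjusted p = 0.0847), against -0.18 in cycle 3 and -1.84 in cycle 2. RPL11P3 is a processed pseudogene, and reads of its parent gene could be counted to it.

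The DMSO arm gives the change over the same interval without drug, from 1 lineage. None of the genes passed a test of the treated change against the DMSO change (0%, 234 at an unadjusted p under 0.05, smallest adjusted p = 1). In DMSO lineage 8, 32 of the 42 higher genes were also higher at time point 8 (50.1% of all genes tested), with a median of 0.21 against 0.95 in the treated lineages. All 7 lower genes were also lower there, with a median of -0.43. FBN1, MME and CORO2A had the smallest p-values on the higher side. The treated change minus the DMSO change was 1.38 ± 0.244 for FBN1, 1.42 ± 0.266 for MME and 1.61 ± 0.328 for CORO2A, a coronin that binds actin, each at an adjusted p of 1. On the lower side HPGD, a prostaglandin-degrading enzyme, had -1.29 ± 0.285, followed by PCDHA13 and the pseudogene G3BP1P1. With 1 DMSO pair the test assumes that it varies like the treated pairs, and the arms were normalized to different targets.

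The unpaired treated libraries at these time points give a rough comparison. For 16 of the 42 higher genes (38.1%) both lineages 3 and 4 at time point 8 lay above lineage 1 at time point 7, against 37.5% of all genes tested. For 13 of the 42 both lay below (31% against 39.4%). For the 7 lower genes both lay below in 2 (28.6% against 39.4%) and above in 4 (57.1% against 37.5%).

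The called genes also varied over the whole course in both arms. Over the 23 DMSO libraries the range of each of the 49 genes was larger than its cycle 4 difference, with a median range of 4.30 (log2), and for 42 of the 49 it covered both cycle 4 means. A range over 23 single libraries tends to exceed a mean of 4 paired differences for any gene. Neither count was taken over all genes tested, so they do not set the called genes apart. HTRA1 ranged from 2.14 to 1548 in DMSO, and its DMSO lineages 8 and 9 were at 1548 and 1485 at time point 4, when treated lineages 2, 5, 6 and 7 were at 396, 524, 1571 and 1815. UNC5B reached 10636 in DMSO lineage 10 and in treated lineage 5 at time point 5. FBN1 after EC of cycle 4 (1557 to 4388) was below its values at time point 4 in lineages 2, 5, 6 and 7 (2649, 3171, 4445 and 5460). CCND2 ranged from 1398 to 4269 in DMSO, and its mean after VDC in cycle 4 was above that range.

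**Figure D5:**
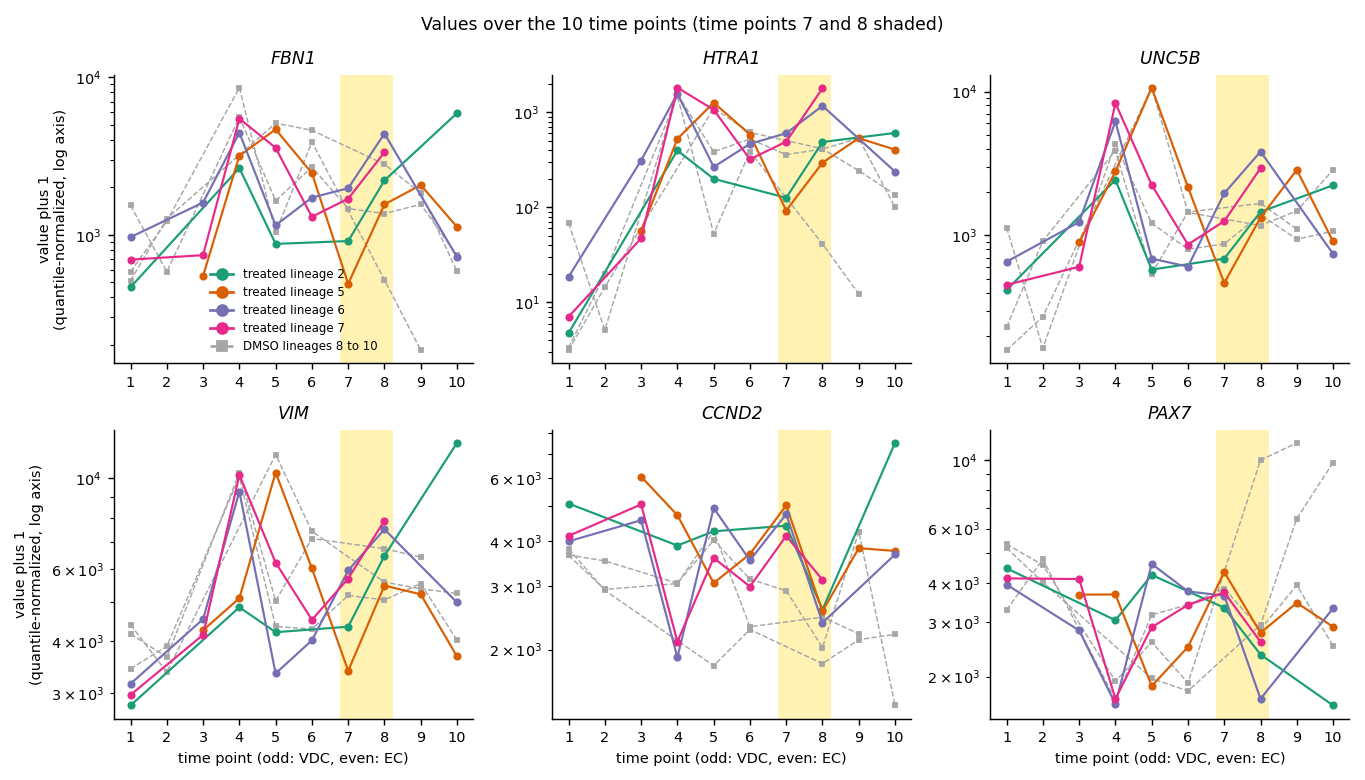
Values plus 1 (quantile-normalized, log axis) over the 10 time points for 6 called genes, with treated lineages 2, 5, 6 and 7 in colour and the 3 DMSO lineages as grey dashed lines. Lines join the libraries present, and the shaded band marks time points 7 and 8. HTRA1 was high at time point 4 in DMSO lineages 8 and 9 and in treated lineages 6 and 7, but not in treated lineages 2 and 5. UNC5B was highest at time point 5, in DMSO lineage 10 and treated lineage 5. In the 4 treated lineages FBN1 was lower at time point 8 than at time point 4. CCND2 and PAX7 turned down within the band in all 4 treated lineages and in DMSO lineage 8.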

How the data were processed

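Total RNA was taken from 73 CHLA-9 cultures with a Qiagen AllPrep kit, and STAR did the alignment and counting, as the labels' protocols state. According to the submitters' processing notes, STAR and featureCounts were used with GRCh38, in versions that are not given. Strandedness is not given in the sources used here. The authors deposited 1 table of 36233 genes whose unit is a signal (counts after quantile normalization). The authors' method is not stated, and treated columns share a total that differs slightly from that of DMSO and parental columns. Genes of adjacent rank swap fixed values, which limits the precision for the most abundant ones. Read depth is unknown, so no counting interval is given.

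Values were analysed as log2(value + 1), a pseudocount of 1. Genes whose mean over all 73 columns reached 10 were kept, 14565 in number. The fits used limma 3.58.1 with its trend option under R 4.3.3, with tables read by data.table (1.17.8). Adjusted p-values (Benjamini-Hochberg) run over all genes tested and were called under 0.05. Figures and sequence searches used Python 3.11.15, matplotlib 3.10.9 and pandas 2.3.3. Groups, time points and lineage numbers came from the labels. A lineage is 1 culture sampled at successive time points, so it was the block in every pair. The deviations of the 2 libraries of a lineage from their group means correlated at 0.252, 0.512, 0.0842 and 0.386 in lineages 2, 5, 6 and 7, while lineage 6 after VDC correlated at 0.488 with lineage 7 after EC. Lineages are separate cultures of 1 cell line. With the lineage block, the p-values measure the spread of the within-lineage differences between cultures, and not the spread of their levels.

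The cycle 4 comparison used 8 libraries, cycles 2 and 3 used 12 each, the tests between cycles used 32 and the test against DMSO used 10. The 36 gene lists hold 943 members, of which 941 were found, 14 of them under another symbol. The members, lists and tests were chosen with earlier results of these data known. Results of 2 lists and 1 gene are not reported here. Named genes were, by rule, the 12 called genes with the largest difference in each direction, topped up by smallest p among genes whose 4 lineages moved alike, then up to 3 called members of each list or else the 2 with the smallest p, 13 genes of prior interest, and the 3 smallest p-values in each direction of each contrast between cycles or arms. Other called genes, and NKX2-2, COL12A1, DCN and VCAN, were named after their values were seen. Gene positions are from GENCODE v29. Alternatives covered the block, the libraries in the fit, the pseudocount, the filter, centring, the limma settings and leaving out each lineage. The fits were tested on simulated data.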

Additional observations from a re-analysis of the deposited data

Results flagged for a closer look

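A lineage was singled out where its log2 difference, EC minus VDC in cycle 4, lay far from those of the other 3 lineages (a gap beyond Dixon's critical value). Of 96 named genes examined 3 met this. Many were named for small p-values or for lineages that moved alike, which favours lineages that agree. The 1 in 20 expected of unselected genes is therefore no measure for this count. COL1A1, a chain of collagen I, differed by 0.177 in lineage 6 and by 1.13 to 1.24 in the other lineages. ALDH1A1, an aldehyde dehydrogenase, differed by -1.22 in lineage 6 and by 1.21 to 1.58 in the others. E2F8, a replication-linked transcription factor, differed by -0.0455 in lineage 7 and by 0.539 to 0.64 in the others.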

How the results depend on the processing

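Against 49 calls in cycle 4, the count was close with a pseudocount of 10 (55) or 0.1 (48), a minimum mean of 10 over the 8 libraries (48) or of 100 (53), centring (49) and robust empirical Bayes (67). With no replicate block 0 genes passed, and the count was also 0 in the fit of cycles 2 to 4 (1088 unadjusted), in the fit of all 49 treated libraries (434), with no filter (2009) and without the limma trend (1382). Leaving out 1 lineage gave 0 to 86. The cause of each of these shifts was not tested. UNC5B, FBN1, ATOH8 and MGP passed in 9 of the 15 alternatives. Cycle 2 had 185 calls with no replicate block, 215 with no filter and 705 in lineages 5, 6 and 7 only, against 1719. The treated change against the DMSO change had 526 calls among 36233 genes with no filter, against 0. That run takes in the genes with a mean under 10, and the arms were normalized to different targets. Whether drug, low values or normalization gave these calls was not tested. Cycle 3 and the contrasts between cycles stayed at 0 under every alternative run. The difference of NEAT1 was 0.38 over the 4 pairs and -0.102 in the fit of all 49 treated libraries. Smaller differences also changed sign in that fit, to -0.0326 for EWSR1, -0.0325 for TUBB, -0.0308 for MKI67 and -0.0177 for MMP14. Leaving out 1 lineage gave -0.0716 to 0.065 for EWSR1, -0.0221 to 0.0554 for TUBB, -0.0498 to 0.0056 for TOP2A and -0.00582 to 0.118 for MMP14. With 4 pairs and an unknown depth, a gene that did not pass is not shown to be unchanged.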

Other observations

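Further called genes complete the set of 49. SUSD5, a sushi domain protein, had 47.9 to 201 after VDC and 141 to 704 after EC, a log2 difference of 1.37 ± 0.171 (adjusted p = 0.0413, limma). CRABP1 binds retinoic acid within cells and RDH10 is an enzyme of retinoic acid synthesis. They differed by 0.80 ± 0.12 and 0.75 ± 0.116 (adjusted p = 0.0452 for each). CAVIN1, a coat protein of caveolae, differed by 0.72 ± 0.111 (adjusted p = 0.0452). PAWR, a pro-apoptotic protein, differed by 0.96 ± 0.138 (adjusted p = 0.0447). The exchange factors ARHGEF28 and DOCK11 differed by 0.96 ± 0.144 and 0.69 ± 0.105. TRAM2, which takes part in collagen production at the endoplasmic reticulum, differed by 0.52 ± 0.0712, and MBNL2, a splicing regulator, by 0.48 ± 0.0737. KAZN, LDLRAD4 and C1orf198 differed by 0.84, 0.59 and 0.48.

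On the lower side, CUX2, a homeobox factor of neurons, had 1378 to 2196 after VDC and 836 to 1478 after EC (-0.76 ± 0.118, adjusted p = 0.0452). RIPOR3 differed by -0.92 ± 0.131 and TMEM229A by -0.52 ± 0.0734 (adjusted p = 0.0447 for each). The genes just beyond the threshold were CEBPB, a C/EBP transcription factor (-0.56 ± 0.0901, adjusted p = 0.0528), SBK1 (-0.40 ± 0.0652, adjusted p = 0.0535), PCDH17, a protocadherin (-0.60 ± 0.0985, adjusted p = 0.0535), NUDT4 (-0.49 ± 0.0816, adjusted p = 0.0559) and RGS6, a regulator of G protein signalling (-0.79 ± 0.136, adjusted p = 0.0634). These 5 had the smallest p-values beyond the threshold among genes lower in all 4 lineages, a choice that favours separated groups. In each of them every value after EC was below every value after VDC. Among all genes tested, 3.25% had groups that did not overlap.

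Over the tested genes, the root mean square log2 distance between the 2 libraries of a lineage was 0.486, 0.547, 0.572 and 0.376 in lineages 2, 5, 6 and 7 in cycle 4. It was 0.348 in DMSO lineage 8 over the same interval, 0.6 to 0.803 in the 6 treated lineages in cycle 2, and 0.445 to 0.607 in cycle 3. The 3 DMSO lineages had 0.445, 0.664 and 0.603 between time points 5 and 6, and DMSO lineages 8 and 10 had 0.6 and 0.565 between time points 9 and 10, where treated lineage 5 had 0.569.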
